A study of Mus musculus with 12 samples.

Results

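The libraries described here are those of primary mouse neurons exposed to kainic acid (KA) and of the untreated neurons of the same experiment (KA control), 6 of the 12 RNA sequencing libraries in the series. They were chosen by their labels and column headings, with no measured value used. All were primary neurons from C57Bl6 animals. The 3 KA libraries came from neurons given 100 µM kainic acid in the culture medium, and the 3 KA control libraries from neurons with no treatment. A second untreated set of the same kind of neuron, the 3 controls of an oxygen-glucose deprivation experiment (OGD control), is set beside them where stated. The sources used here give neither the brain region and culture age nor how long the exposure lasted. No label says that replicates were separate cultures, so each p-value reflects the variation among these libraries alone, and that variation may be technical.

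Kainic acid activates kainate and AMPA receptors, the ionotropic receptors that carry most fast excitatory transmission. Depolarization then opens NMDA receptors and voltage-gated calcium channels, and the calcium that enters drives a first wave of transcription factors, the immediate early genes, through CREB and SRF. Later waves include neuropeptides and their processing enzymes, growth factors, and inhibitors of the same signalling pathways. Prolonged exposure is excitotoxic. The immediate early genes served here only to mark the first wave: of 38 tested, 37 were higher in KA and none lower, 35 of them by more than 2-fold, where 35.2% of all tested genes were higher, 37.6% lower and 7.36% higher by more than 2-fold. Against OGD control 36 were higher (29.3% of all tested genes) and none lower (28.3%). The rest of the text is about genes outside that list of 40, apart from Gem, Srf, Dusp1, Nfil3 and Sik1, which belong to it and also to lists described below.

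Total counts were 12873444 to 19233836 per library in KA and 16054338 to 21142267 in KA control, and 13139 of 22899 genes had enough counts to be tested. Values are counts scaled to library size, in CPM, with TMM factors, so they are not corrected for gene length and levels are not compared between genes. The limit set by a count of 0 (3 counts, counting error only) was 0.168 to 0.249 CPM in KA and 0.129 to 0.169 CPM in KA control. On log2(CPM + 1), the mean distance between libraries was 85.4 for KA against KA control. It was 54.0 for KA against OGD control and 72.3 for KA control against OGD control. Against the deprived libraries of that experiment (OGD) it was 60.9 for KA and 64.1 for KA control. The first principal component held 59.6% of the variance and separated KA control (48.1 to 49.7) from the other groups. KA lay at its other end (-35.9 to -31.4), with OGD and OGD control between them (-14.7 to -0.854). The second component held 25.9% and separated the KA experiment (11.7 to 26.9) from the OGD experiment (-21.9 to -17.4). For each named gene whose call against OGD control was not in the same direction, the value against OGD control is therefore given, and the tally against OGD control stands beside each gene list. That second comparison uses the same KA libraries and so is not independent. Experiment and treatment cannot be told apart in it.

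The cells carried neuronal transcripts in all 6 libraries. Stmn2, a neuronal tubulin-binding protein, was at 4066, 4002 and 3829 CPM in KA and 2764, 2827 and 2791 CPM in KA control. Neurod6 and Slc17a7, markers of cortical excitatory neurons, were at no less than 1021 and 198 CPM in KA and 605 and 127 CPM in KA control. Some defining markers of other brain cells were near 0: P2ry12 and Tmem119 (microglia), and Cldn5 and Pecam1 (endothelium) did not exceed 0.281 CPM in any of the 6 libraries. Others were present. Mbp (oligodendrocytes) was at 30.2 to 34.7 CPM in KA and 24.1 to 27.4 CPM in KA control. Foxj1 (ependyma) was at 10.8 to 13.01 CPM in KA and 4.29 to 4.999 CPM in KA control. In OGD control Foxj1 was at 16.9 to 19.2 CPM, and KA was lower there (log2 fold change -0.56). Aqp4 (astrocytes) was at 1.58 to 2.02 CPM in KA and 1.53 to 1.91 CPM in KA control. Aqp4 alone does not represent its list. The astrocyte and radial glia markers summed to 654 to 706 CPM in KA and 236 to 245 CPM in KA control. Of 13 tested, 8 were higher and 1 lower. Rbfox3, a widely used neuronal marker, stayed at or under 0.646 CPM in these 6 libraries, and Map2, another, at or under 15.4 CPM.

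In KA, 4622 genes (35.2% of those tested) were higher and 4936 (37.6%) were lower than in KA control (edgeR quasi-likelihood test, adjusted p under 0.05). Against a threshold of 2-fold, 967 genes (7.36%) were higher and 675 (5.14%) were lower, and for all 1642 of these the libraries of the 2 groups did not overlap. Over all 13139 genes, 73.7% did not overlap, so separation alone is the common case. Against OGD control, 3856 genes (29.3%) were higher and 3718 (28.3%) were lower in KA. The shares over all 13139 tested genes are the background for every tally of a gene list below. They vary with the mean level of a gene, as given in the next paragraph, and no tally was matched for level. In every list, members that pass the count filter through the high group alone were bound to differ. In these bulk libraries fewer cells of a type and less RNA per cell cannot be told apart, and this holds for every group of genes below.

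The higher and lower genes differed in size and in abundance. Among genes with an adjusted p under 0.05, the estimate exceeded 8-fold for 151 that were higher and for 6 that were lower. The 967 higher genes together held 140934 to 145295 CPM in KA, against 39976 to 41011 CPM in KA control and 93267 to 96300 CPM in OGD control. The 675 lower genes held 7196 to 7838 CPM in KA, against 19678 to 19964 CPM in KA control and 11752 to 11963 CPM in OGD control. These sums describe sets chosen on the same libraries. Among the 2628 genes with the highest mean level, 55.4% were higher in KA and 29.2% lower, with 0.609% lower by more than 2-fold. Among the 2627 genes in the middle of the range the order was turned, with 30.3% higher and 52.1% lower, and 9.40% were lower by more than 2-fold.

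**Figure D1:**
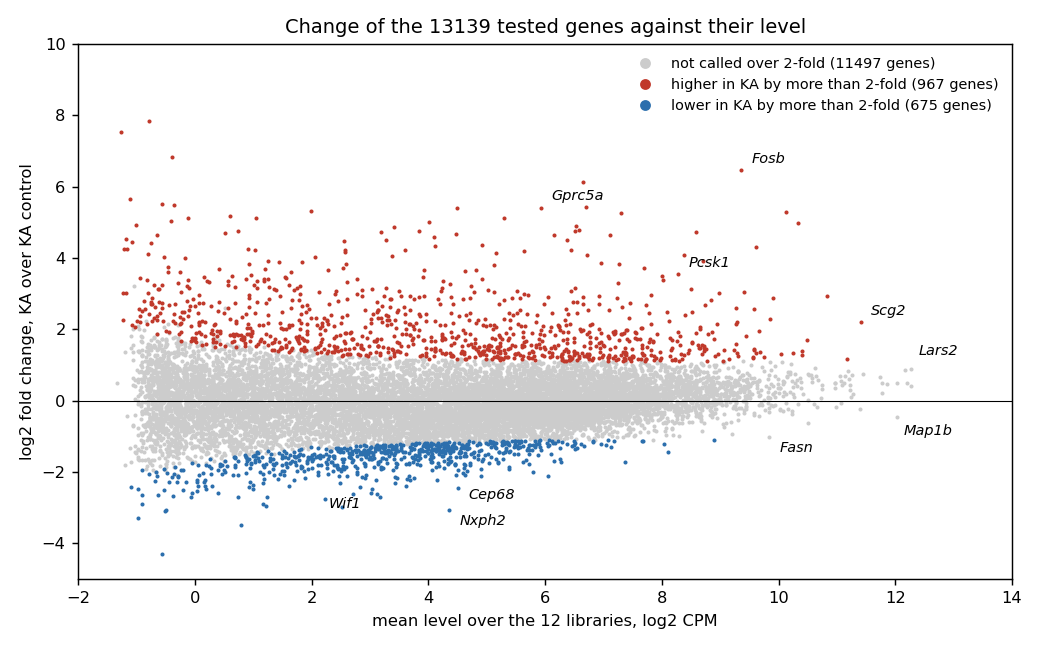
Log2 fold change of each tested gene, KA over KA control (vertical axis), against its mean level over the 12 libraries in log2 CPM (horizontal axis). The 967 genes higher by more than 2-fold (red) are found at every level, while the 675 lower by more than 2-fold (blue) thin out among abundant genes; the remaining genes are grey.

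Outside the immediate early list, the 3 genes with the largest rises among those of at least 3 logCPM code for receptors or a secreted protein. Gprc5a, an orphan G protein-coupled receptor, was at 175, 190 and 170 CPM in KA, against 3.43, 3.95 and 5.16 CPM in KA control (log2 fold change 5.41, SE 0.12, adjusted p = 9.02e-26). Tnfaip6, a secreted hyaluronan-binding protein, was at 31.3, 36.5 and 35.4 CPM in KA, against 1.01, 0.99 and 1.23 CPM in KA control (log2 fold change 5.001, SE 0.134). Galr1, a galanin receptor, was at 25.5, 26.1 and 25.3 CPM in KA, against 0.62, 0.90 and 1.07 CPM in KA control (log2 fold change 4.86, SE 0.13). No KA library came near any KA control library for these 3 genes. On mm10, Gprc5a lies at chr6:135065651-135084709 and Tnfaip6 at chr2:52038009-52056686. The untreated neurons of the other experiment lay between the groups, at means of 46.9 CPM for Gprc5a, 20.6 CPM for Tnfaip6 and 12.97 CPM for Galr1.

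The remaining genes chosen for the largest rises were Rrad (log2 fold change 4.75), Dusp16 (4.73), Ptgs2 (4.68), 4931440P22Rik (4.64), Ptx3 (4.57), Esm1 (4.50), Rasd1 (4.35), Slc15a2 (4.34) and Gli2 (4.23). Ptx3 is a secreted pentraxin, Esm1 a secreted proteoglycan, Rasd1 a small GTPase of the Ras family and Slc15a2 a peptide transporter. Slc15a2 was at 19.4, 22.2 and 24.0 CPM in KA, against 1.07, 0.86 and 1.33 CPM in KA control and 24.0, 23.6 and 29.0 CPM in OGD control, and although the libraries of KA and OGD control overlapped, the fit placed it lower in KA than in OGD control (log2 fold change -0.22, adjusted p = 0.0377). Gli2, a transcription factor of the Hedgehog pathway, was at 33.9, 37.7 and 37.8 CPM in KA, against 2.02, 2.19 and 1.58 CPM in KA control and 8.86, 6.92 and 6.84 CPM in OGD control. It was higher in KA than in either untreated set (log2 fold change 2.29 against OGD control). The transcript 4931440P22Rik overlaps Tiparp on the opposite strand, Esm1 overlaps Gzmk and Ptx3 overlaps Veph1; strand was not recorded by the kit, and reads could come from either partner. The same holds for Tgfb3 with Ttll5, Nefl with Nefm, Bid with Bcl2l13, Recql4 with Mfsd3, Vcl with Ap3m1, Dusp1 with Ergic1, Sik2 with Ppp2r1b, Zfp335 with Pcif1, Nphp4 with Kcnab2 and Mcm7 with Cops6. Further named genes overlap predicted genes or annotated antisense RNAs.

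**Figure D2:**
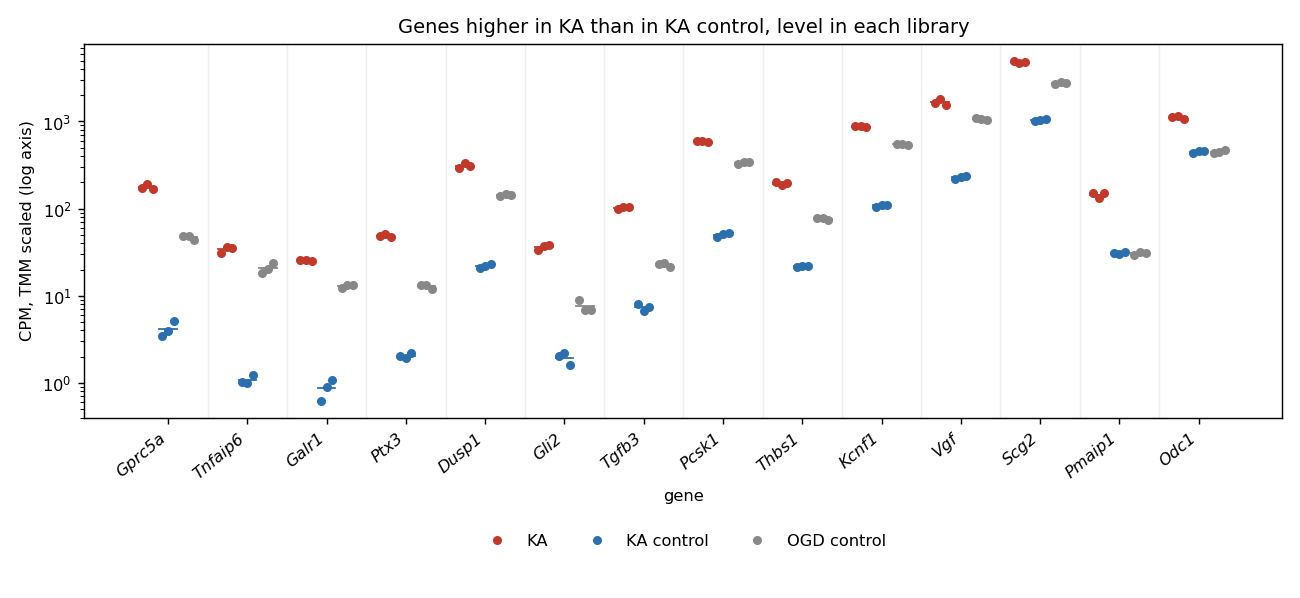
Level in each library, in CPM on a log axis, of 14 genes higher in KA (red, left) than in KA control (blue, middle), with OGD control in grey (right); short lines are group means. For every gene the KA libraries lie above the KA control libraries, and OGD control lies at the KA control level for Pmaip1 and Odc1 and in between for the others.

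Neuropeptide and granin precursors were higher in KA as a group, by count: of 22 tested of 26 listed, 18 were higher and 1 lower, 9 of them higher by more than 2-fold, with a median log2 fold change of 0.84 against -0.02 over all genes. Scg2, which codes for the granin secretogranin II and gained more CPM than any other gene outside the immediate early list, was at 4949, 4638 and 4818 CPM in KA, against 1003, 1048 and 1076 CPM in KA control (log2 fold change 2.20, SE 0.04). Vgf, the precursor of several secreted peptides, was at 1649, 1807 and 1539 CPM in KA, against 222, 230 and 235 CPM in KA control (log2 fold change 2.86). Crh, corticotropin-releasing hormone, was at 51.2, 53.6 and 49.0 CPM in KA, against 6.40, 7.90 and 6.64 CPM in KA control (log2 fold change 2.87). The 1 lower precursor was Cort, cortistatin, at 3.39, 3.37 and 3.08 CPM in KA and 8.99, 8.85 and 8.53 CPM in KA control.

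Relative to OGD control the peptide list was split, with 8 higher and 9 lower (median -0.18). Scg2 and Vgf were higher in KA there too (log2 fold change 0.80 and 0.64), while Crh was lower (-0.60). Cort was lower against both KA control (-1.42) and OGD control (-1.37). The enzymes that cut and amidate these precursors were also higher. Pcsk1, the prohormone convertase of regulated secretory granules, was at 598, 590 and 589 CPM in KA, against 47.0, 51.3 and 52.8 CPM in KA control (log2 fold change 3.55, SE 0.05). Pam, the peptide amidating enzyme, was at 1496, 1498 and 1435 CPM in KA, against 239, 252 and 258 CPM in KA control (log2 fold change 2.56). Of 10 tested processing genes 7 were higher and 1 was lower, and against OGD control 5 were higher and none lower. The lower member was Pcsk5, a prohormone convertase (log2 fold change -0.94), which was not called against OGD control (-0.17).

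Promoters were read for the cyclic AMP response element (CRE), the site of CREB, because CREB is a known route from calcium to neuropeptide genes. Bases before the annotated start are shown for 3 secretory genes with the full CRE and 2 genes with an AP-1 site. All 5 were higher in KA than in KA control. The AP-1 site is the site of Fos and Jun dimers. Capitals mark the CRE (TGACGTCA) or the AP-1 site (TGANTCA), and all are written 5′ to 3′ on the gene's own strand, from RefSeq promoters on GRCm38.p6. The 5 were picked after their motifs were known, as examples. The stretches lie at chr13:75089707-75089856 (plus strand), chr1:79440027-79440176 (minus), chr16:23890845-23890994 (minus), chr2:52037963-52038112 (plus) and chr7:128523433-128523582 (plus), in the order below, and each ends at the base before the start.
Pcsk1: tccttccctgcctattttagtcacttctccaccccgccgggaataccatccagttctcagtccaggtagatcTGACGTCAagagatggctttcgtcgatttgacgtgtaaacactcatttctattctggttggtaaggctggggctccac
Scg2: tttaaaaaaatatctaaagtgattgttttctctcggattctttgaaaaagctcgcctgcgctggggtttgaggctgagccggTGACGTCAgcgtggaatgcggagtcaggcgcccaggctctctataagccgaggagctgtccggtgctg
Sst: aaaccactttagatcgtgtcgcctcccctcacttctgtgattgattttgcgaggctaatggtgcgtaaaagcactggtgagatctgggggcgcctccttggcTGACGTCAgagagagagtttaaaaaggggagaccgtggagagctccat
Tnfaip6: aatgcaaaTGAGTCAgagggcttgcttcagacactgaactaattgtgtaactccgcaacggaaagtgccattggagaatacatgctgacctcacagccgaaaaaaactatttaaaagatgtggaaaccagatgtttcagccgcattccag
Bag3: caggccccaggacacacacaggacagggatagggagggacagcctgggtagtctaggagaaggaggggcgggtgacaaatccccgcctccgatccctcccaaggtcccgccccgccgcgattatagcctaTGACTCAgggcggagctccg

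The CRE begins 78 bases before the start in Pcsk1, 68 in Scg2 and 48 in Sst, the somatostatin gene, whose rat promoter is the textbook example of this element. Sst was at 652, 669 and 618 CPM in KA, against 274, 267 and 283 CPM in KA control (log2 fold change 1.24), and OGD control was higher than both at a mean of 789 CPM. The AP-1 site begins 142 bases before the start in Tnfaip6 and 20 in Bag3. The Bag3 window also holds the letters of a heat-shock element (GAAGTTTC), 42 to 49 bases after the start and so outside the printed stretch. Over all genes with a single window in the table (250 bases before to 50 after the start, both strands), the CRE was found in 47 of 595 genes (7.90%) higher by more than 2-fold outside the immediate early list. It was found in 10 of 485 (2.06%) lower by more than 2-fold, in 3.50% of the 8475 tested genes and in 1.85% of all 22862 windows.

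The AP-1 letters were found in 7.39% of the higher genes, 3.09% of the lower, 4.21% of those tested and 7.98% of all windows. Among the 81 genes outside the immediate early list that were higher by over 8-fold, 13 (16.0%) held AP-1. A TATA box (TATAAA) was in 13.3% of the higher genes, 6.39% of the lower, 6.95% of those tested and 14.8% of all windows, so for AP-1 and TATA the higher genes lay near the share of all windows and above that of expressed genes. The CRE core (TGACG), which lies within the full CRE, was in 38.5%, 29.5%, 32.5% and 20.6% of the same 4 sets. A heat-shock element (GAANNTTC) was in 6.05%, 5.57%, 5.66% and 8.16%, and the EGR site (GCGTGGGCG) in 1.51%, 1.86%, 1.25% and 0.586%. A match of letters does not show that a factor binds.

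**Figure D3:**
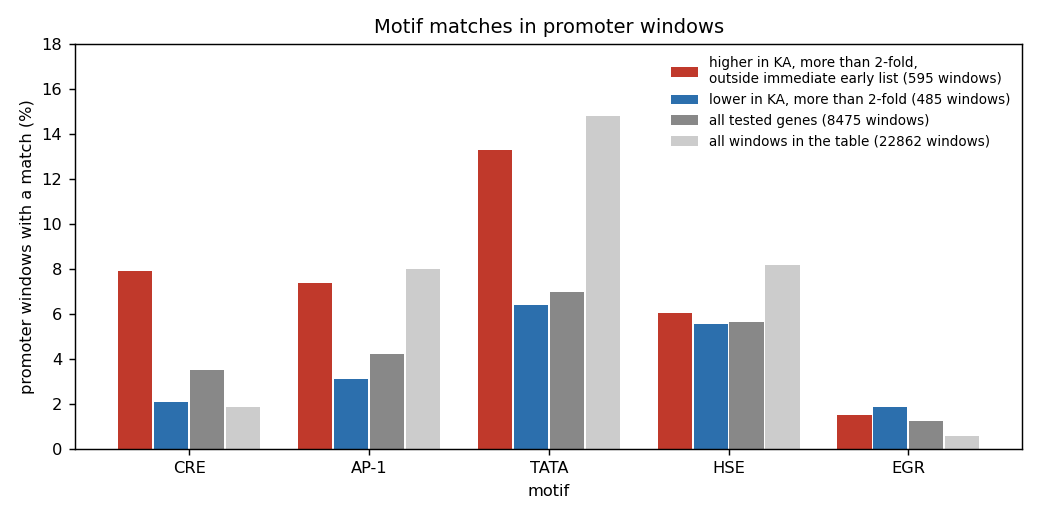
Share of promoter windows that hold each motif, in percent, for genes higher in KA by more than 2-fold outside the immediate early list (red), genes lower by more than 2-fold (blue), all tested genes (dark grey) and all windows in the table (light grey). The CRE share is 7.90% in the higher genes and 2.06% in the lower, against 3.50% of tested genes.

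Secreted growth factors were higher in 23 of 29 tested cases (41 listed) and lower in 2, with 13 over 2-fold and a median log2 fold change of 1.28. Members that pass the count filter through the high group alone were bound to differ. Tgfb3, a transforming growth factor beta ligand, was at 98.4, 103 and 104 CPM in KA, against 8.03, 6.70 and 7.51 CPM in KA control and 22.99, 23.8 and 21.6 CPM in OGD control, for log2 fold changes of 3.79 against KA control and 2.16 against OGD control. The neurotrophin Bdnf was at 71.5, 65.0 and 66.3 CPM in KA, against 7.92, 7.34 and 8.43 CPM in KA control, with a mean of 40.1 CPM in OGD control. Grem1, a secreted BMP antagonist, had a log2 fold change of 2.43. Nrg2, a neuregulin, was lower (-0.47). Against OGD control 18 of the 29 were higher and 6 lower (median 0.59).

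Outside the immediate early genes, inhibitors of MAP kinase signalling had the highest median of the lists with at least 10 tested members. Of 18 tested MAP kinase phosphatases, Sprouty and Spred genes 16 were higher, 11 of them by more than 2-fold, and 2 were lower (median 1.93). Dusp1, which inactivates MAP kinases, was at 293, 335 and 305 CPM in KA, against 20.6, 21.9 and 23.2 CPM in KA control, with OGD control at a mean of 144.6 CPM (log2 fold change 3.83). Dusp16 and Dusp10, both phosphatases of JNK and p38, rose by 4.73 and 3.67 on the log2 scale. The lower members were Dusp2 (-1.10) and Dusp7 (-0.17), and against OGD control Dusp2 was higher (0.42) and Dusp7 was not called (-0.008). Against OGD control 13 were higher and 2 lower (median 0.38).

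RGK GTPases, which inhibit voltage-gated calcium channels, were raised strongly within a list that was otherwise mixed. Of 35 phosphodiesterases, RGS proteins, RGK GTPases and Rcan genes, 18 were higher and 6 lower (median 0.36), and against OGD control 15 and 6. Gem was at 40.2, 45.6 and 42.7 CPM in KA, against 1.07, 1.07 and 0.87 CPM in KA control (log2 fold change 5.41). Rrad was at 27.1, 29.3 and 25.0 CPM in KA, against 1.01, 0.86 and 1.18 CPM in KA control. In OGD control Rrad had a mean of 23.05 CPM, close to KA (log2 fold change 0.24, adjusted p = 0.0104). Rem2, the third RGK member chosen, had a log2 fold change of 2.93. Rcan3, a calcineurin inhibitor, was lower against both KA control (-0.78) and OGD control (-1.54).

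Among activity-regulated kinases 19 of 27 were higher and 1 was lower (median 0.92), with 11 higher and 5 lower against OGD control. Sik1, a salt-inducible kinase that restrains CREB coactivators, was at 690, 695 and 665 CPM in KA, against 95.1, 95.0 and 103 CPM in KA control, and 559 CPM on average in OGD control. Stk17b, a death-associated protein kinase relative, rose by 2.65 and Sik2 by 1.97, whereas Camkk1, a calcium/calmodulin kinase kinase, was lower by 0.69 on the log2 scale but not called against OGD control (-0.04). Cytoskeletal targets of SRF included 17 higher and no lower members of 21 tested (median 0.72). Srf itself was at 307, 360 and 293 CPM in KA, against 77.3, 78.9 and 80.2 CPM in KA control. Tes and Vcl, focal adhesion proteins, rose by 1.61 and 1.57, and against OGD control 13 of the 21 were higher and 2 lower.

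Of the NF-kappaB and inflammatory list only 15 of 32 genes could be tested, since cytokines were close to 0. Il6 did not exceed 0.112 CPM and Ccl2 0.0808 CPM in these libraries, and Tnf was listed at 0 in all 6. Of the 15, 13 were higher and 1 lower (median 1.61), and against OGD control 12 and 1, but genes that pass a count filter through the high group alone were bound to differ. Ptgs2, the inducible prostaglandin synthase, was at 39.6, 39.4 and 39.3 CPM in KA, against 1.404, 1.803 and 1.33 CPM in KA control and 22.6, 23.8 and 25.5 CPM in OGD control. Ptx3 was at 48.0, 51.3 and 47.0 CPM in KA, against 2.02, 1.93 and 2.20 CPM in KA control and a mean of 12.8 CPM in OGD control. Rel, an NF-kappaB subunit, had a log2 fold change of 2.93.

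Clock and PAR bZIP genes included 10 higher and 2 lower members of 15 tested (median 0.74). Nfil3, a bZIP repressor, was at 1213, 1294 and 1170 CPM in KA, against 142, 153 and 151 CPM in KA control. Per2 rose by 2.55 and Hlf by 2.46 on the log2 scale, and Hlf was also higher than in OGD control by 1.38. The lower member chosen was Ciart, a clock repressor (-1.03), not called against OGD control (-0.205). Against OGD control 9 of the 15 were higher and 1 lower.

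Notch and Hedgehog genes were higher in 17 of 32 cases (53.1%, against 35.2% of all tested genes), 10 over 2-fold, and lower in 6 (median 0.63). Against OGD control 13 were higher and 5 lower. Maml3, a Notch coactivator, was at 161, 163 and 164 CPM in KA, against 24.7, 24.2 and 25.4 CPM in KA control, and 121 CPM on average in OGD control. Boc, a Hedgehog coreceptor, was at 56.5, 65.2 and 64.3 CPM in KA, against 10.9, 9.75 and 11.5 CPM in KA control, yet its KA and OGD control libraries overlapped (log2 fold change -0.04, adjusted p = 0.65). The Notch ligands Dll1 and Jag2 were lower (-0.81 and -0.73) but not called against OGD control (-0.14 and 0.008). Among 41 tested Wnt pathway genes of 57 listed, 18 (43.9%) were higher and 11 (26.8%) lower, and against OGD control 18 and 11. Rnf43, a ubiquitin ligase that removes Frizzled receptors, rose by 4.17, and Lgr5, an R-spondin receptor, by 3.06, although Lgr5 was lower than in OGD control (-0.22).

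Of 125 listed transcription factors of neuronal subtype and patterning, 80 were tested. Of these, 51 were higher and 11 lower (median 0.62), and against OGD control 35 were higher and 26 lower. Members that pass the count filter through the high group alone were bound to differ, here and in the matrix list. Pou3f1, a POU factor, was at 650, 692 and 589 CPM in KA, against 114, 118 and 117 CPM in KA control and 190, 214 and 215.9 CPM in OGD control. Its KA libraries lay above both untreated sets (log2 fold change 2.47 against KA control and 1.64 against OGD control). Sox9 rose by 3.22 and Lhx5 by 2.99, and Satb1 and Etv1 were lower (-0.93 and -0.81) but not called against OGD control (0.27 and -0.05). Extracellular matrix genes included 49 higher and 15 lower members of 89 tested of 119 listed (median 0.41). Against OGD control 27 were higher and 23 lower. Thbs1, thrombospondin 1, was at 200, 186 and 195 CPM in KA, against 21.2, 22.0 and 21.9 CPM in KA control and a mean of 76.7 CPM in OGD control. The metalloproteases Adamts1 and Adamts9 rose by 2.72 and 2.55.

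Of 65 Kcn potassium channel genes 26 (40%) were higher and 24 (36.9%) lower, near the 35.2% and 37.6% of all tested genes (median 0.01). Kcnf1, a silent Kv subunit, was at 886, 885 and 854 CPM in KA, against 105, 111 and 111 CPM in KA control and 551, 551 and 538 CPM in OGD control. Kcna1 and Kcnj4, a Kv1 and an inward rectifier subunit, rose by 1.97 and 1.90, although Kcnj4 was not called against OGD control (-0.011), while Kcna2, another Kv1 subunit, was lower at 21.5, 18.97 and 26.1 CPM in KA, against 54.2, 47.7 and 47.2 CPM in KA control. Against OGD control 11 of the 65 were higher and 29 lower (median -0.25). Among sodium channels 2 of 10 (20%) were higher and 3 (30%) lower, and against OGD control none was higher and 5 were lower (median -0.64). Scn2b, an auxiliary subunit, was at 16.2, 13.36 and 12.2 CPM in KA and 39.9, 36.2 and 39.9 CPM in KA control.

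For glutamate receptors, 14 of 30 ionotropic and auxiliary genes (46.7%) were higher and 7 (23.3%) lower (6 and 15 against OGD control). Over all tested genes the shares were 35.2% and 37.6%. The NMDA receptor subunit Grin2a led the rises, at 36.0, 36.7 and 42.1 CPM in KA, against 8.31, 9.70 and 10.7 CPM in KA control. Of 6 metabotropic receptors none was higher and 5 were lower (2 and 4 against OGD control), none past the 2-fold test; Grm2, Grm3 and Grm7 had log2 fold changes of -0.69, -0.67 and -0.61. Against OGD control Grm2 and Grm7 were higher (0.76 and 0.14). GABA receptor genes included 9 (52.9%) higher and 7 (41.2%) lower members of 17 tested (3 and 6 against OGD control). Gabrq was at 16.6, 16.8 and 17.96 CPM in KA and 2.92, 2.10 and 2.66 CPM in KA control, and Gabrb2 was lower by 0.70. Of 54 listed monoamine, muscarinic and adenosine receptors 34 were tested. Of these, 14 (41.2%) were higher and 8 (23.5%) lower, beside 35.2% and 37.6% of all tested genes. Against OGD control 13 were higher and 8 lower. The serotonin receptor Htr2a rose by 2.64.

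Presynaptic release genes included 24 higher and 18 lower members of 60 tested (40% and 30%, near the shares over all genes; median 0.04), and against OGD control 15 were higher and 32 lower (median -0.26). Sv2c, a synaptic vesicle protein, was at 167, 167 and 177 CPM in KA, against 30.6, 30.3 and 33.1 CPM in KA control. Doc2b, a calcium sensor of release, was lower at 26.3, 23.2 and 21.1 CPM in KA, against 59.7, 54.4 and 57.6 CPM in KA control and 42.0, 49.8 and 46.1 CPM in OGD control. On the postsynaptic side 12 of 27 scaffold genes (44.4%) were higher and 7 (25.9%) lower, beside 35.2% and 37.6% of all tested genes. Against OGD control 9 were higher and 10 lower. Baiap2 and Homer1 were higher by 3.66 and 2.25. Homer1 was lower than in OGD control (-0.45). It has 5 RefSeq transcripts, which counts per gene do not tell apart.

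Of the neurexophilins, secreted ligands of alpha-neurexins, Nxph1 and Nxph2 were lower by more than 2-fold. Nxph2 was at 2.75, 3.03 and 2.83 CPM in KA, against 22.5, 26.5 and 24.3 CPM in KA control and 26.7, 26.4 and 24.6 CPM in OGD control. Its log2 fold change was -3.08 (SE 0.11) against KA control and -3.16 against OGD control. Nxph1 was at 16.1, 13.8 and 12.4 CPM in KA, against 62.3, 58.2 and 62.8 CPM in KA control and 96.3, 96.0 and 95.5 CPM in OGD control, for log2 fold changes of -2.12 against KA control and -2.77 against OGD control. Nxph3 was at 9.05, 7.86 and 7.07 CPM in KA and 16.9, 18.4 and 17.3 CPM in KA control, but its level in OGD control, 8.68 CPM on average, was not distinguished from KA (adjusted p = 0.352). Nxph1 and Nxph2 were thus lower in KA than in both untreated sets, with no overlap. Over all 43 neurexin partners 18 (41.9%) were higher and 12 (27.9%) lower, beside 35.2% and 37.6% of all tested genes. Against OGD control 10 of the partners were higher and 19 lower. Nxph1 is a marker of inhibitory interneurons.

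Inhibitory neuron markers did not move together. Of 15 tested, 9 were higher and 4 lower relative to KA control (median 0.41), while 1 was higher and 13 were lower relative to OGD control (median -1.12). The list summed to 2082 to 2156 CPM in KA, 1567 to 1585 CPM in KA control and 4261 to 4514 CPM in OGD control, so the untreated sets themselves differed more than KA did from its own control. Gad2, a GABA-synthesizing enzyme, was at 249, 234 and 250 CPM in KA, against 122, 122 and 118 CPM in KA control and 650, 647 and 661 CPM in OGD control. Erbb4, a neuregulin receptor, was lower relative to KA control (-1.01) and OGD control (-1.69). Excitatory markers were higher in 12 of 12 cases (9 higher and 1 lower against OGD control), with Fezf2 at 468, 478 and 436 CPM in KA, against 81.4, 83.0 and 87.8 CPM in KA control.

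**Figure D4:**
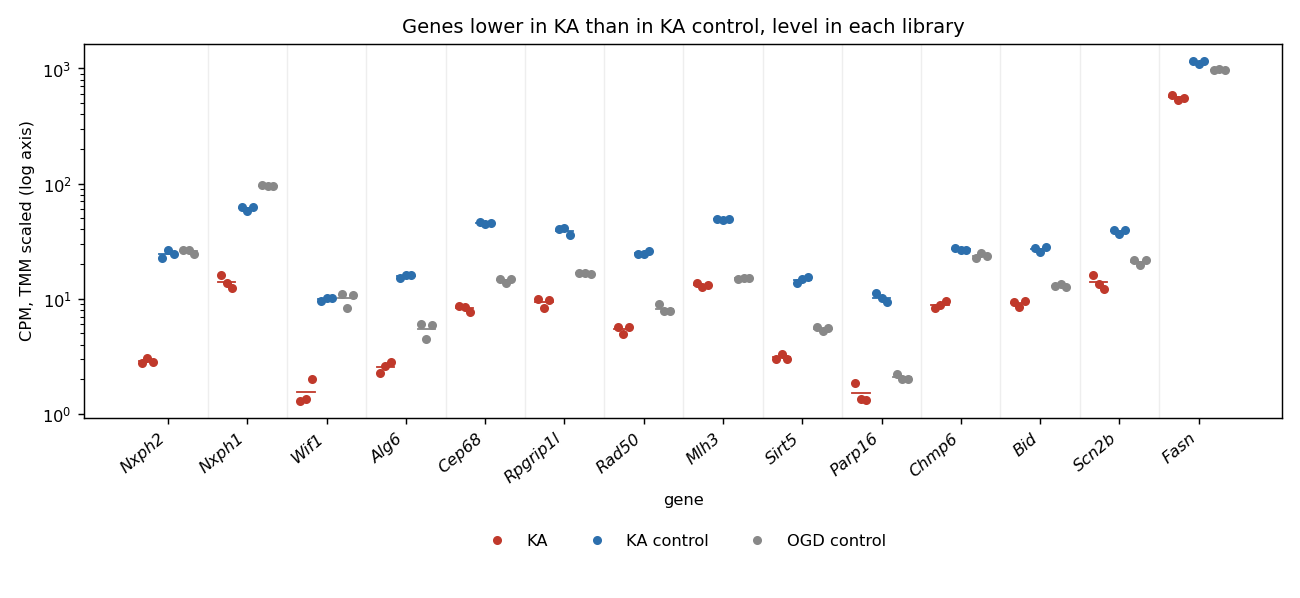
Level in each library, in CPM on a log axis, of 14 genes lower in KA (red, left) than in KA control (blue, middle), with OGD control in grey (right); short lines are group means. Nxph2, Nxph1, Wif1, Chmp6 and Fasn lie below both untreated sets, with OGD control closer to KA control than to KA. Cep68, Rad50, Mlh3 and Sirt5 also lie below both. For these and Parp16, however, the levels in OGD control are closer to KA than to KA control.

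Beside the neurexophilins, the genes with the largest falls were Wif1 (log2 fold change -2.72), Alg6 (-2.62), Cep83os (-2.60), Zmat1 (-2.47), Cep68 (-2.45), Tti1 (-2.40), Fam217b (-2.32), Sirt5 (-2.23), 4933404O12Rik (-2.23), Cecr6 (-2.22) and Rad50 (-2.21). Wif1, a secreted Wnt inhibitor, was at 1.29, 1.35 and 1.996 CPM in KA, against 9.61, 10.2 and 10.2 CPM in KA control and 11.1, 8.36 and 10.9 CPM in OGD control. Sirt5, a mitochondrial deacylase, was at 2.99, 3.31 and 2.99 CPM in KA, against 13.7, 14.9 and 15.5 CPM in KA control and 5.65, 5.25 and 5.62 CPM in OGD control. Both were lower in KA than in either untreated set, but OGD control stood near KA control for Wif1 and nearer to KA for Sirt5. Cep83os is a long non-coding RNA, and Tti1 is part of a complex that matures PIK-related kinases.

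Genes of the centrosome and primary cilium formed the list with the lowest median. Of 81 tested, 51 were lower and 13 higher, 16 lower by more than 2-fold and none higher by that much (median -0.68). Cep68, which holds centrosomes together, was at 8.64, 8.42 and 7.73 CPM in KA, against 46.0, 44.6 and 45.7 CPM in KA control and 14.7, 13.7 and 14.8 CPM in OGD control. Rpgrip1l, a protein of the ciliary transition zone, was at 9.86, 8.31 and 9.81 CPM in KA, against 40.6, 41.1 and 35.5 CPM in KA control and a mean of 16.7 CPM in OGD control. Against OGD control both stayed lower (-0.80 and -0.85), but over the list 17 were higher and 28 lower, with a median of -0.10. Nphp4 and Bbs5, also ciliary genes, were higher in KA (0.98 and 0.81).

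DNA repair genes were lower in 42 of 68 tested cases and higher in 12 (median -0.50), with 14 lower and 5 higher by more than 2-fold. Rad50, of the complex that binds double-strand breaks, was at 5.65, 4.94 and 5.74 CPM in KA, against 24.3, 24.4 and 26.2 CPM in KA control and 8.94, 7.76 and 7.88 CPM in OGD control. The mismatch repair gene Mlh3 was at 13.7, 12.6 and 13.1 CPM in KA, against 49.1, 47.9 and 49.7 CPM in KA control and 14.8, 15.3 and 15.2 CPM in OGD control. Its change from KA control was -1.90 on the log2 scale. Recql4, a helicase, and Xrcc2, of homologous recombination, rose by 2.15 and 1.87. Set against OGD control, the list was near balance, with 20 higher and 16 lower with a median of 0.03. Of the PARP family 3 of 11 (27.27%) were higher and 6 (54.55%) lower, beside 35.2% and 37.6% of all tested genes (5 and 3 against OGD control). Tiparp was at 446, 431 and 436 CPM in KA, against 35, 42.4 and 38.8 CPM in KA control, and Parp16 fell by 2.77 on the log2 scale but was not called against OGD control (-0.475).

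Zfp zinc finger genes, the largest family examined, were lower in 165 of 302 tested cases and higher in 69 (median -0.31). Zfp113 was at 5.65, 4.49 and 4.74 CPM in KA, against 20, 22.8 and 22.1 CPM in KA control, and Zfp335 was higher at 250, 277 and 273 CPM in KA, against 72.9, 72.2 and 75.2 CPM in KA control. The direction of the list turned against OGD control, where 112 were higher and 56 lower (median 0.15). Endosomal sorting genes were lower in 48 of 67 cases and higher in 11 (median -0.38), and against OGD control in 29 and 8. Chmp6, an ESCRT-III subunit, was at 8.24, 8.87 and 9.56 CPM in KA, against 27.7, 26.3 and 26.5 CPM in KA control and 22.5, 24.9 and 23.5 CPM in OGD control. N-glycan and GPI-anchor genes were lower in 30 of 61 cases and higher in 15, and against OGD control in 23 and 8. Among them Alg6, a glucosyltransferase of the N-glycan precursor, was at 2.26, 2.58 and 2.83 CPM in KA, against 15, 16.2 and 16.1 CPM in KA control and a mean of 5.48 CPM in OGD control.

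The parts of the translation and energy machinery did not share a direction. Cytosolic ribosomal protein genes included 74 higher and 3 lower members of 80 tested, none by more than 2-fold (median 0.49; 56 and 3 against OGD control), whereas mitochondrial ribosomal genes were lower in 48 of 74 and higher in 11 (median -0.29; 23 and 17 against OGD control). Rplp0 was at 1463, 1585 and 1338 CPM in KA, against 844, 833 and 868 CPM in KA control, and Mrps27 at 11.9, 11.2 and 12.0 CPM in KA, against 29.2, 30.4 and 30.6 CPM in KA control. Many ribosomal protein genes have near-identical processed copies, so single values are uncertain. Eprs, a tRNA synthetase, was at 2329, 2203 and 2391 CPM in KA, against 690, 728 and 713 CPM in KA control, but Dars and Lars of the same family were lower (-1.399 and -1.15), Lars without a call against OGD control (0.04). Nuclear-encoded respiratory chain genes included 48 higher and 21 lower members of 87 tested against KA control, and 8 higher and 43 lower against OGD control.

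Among metabolic genes, the glucose transporters Slc2a3 and Slc2a1 rose: Slc2a3 was at 1433, 1416 and 1394 CPM in KA, against 281, 294 and 295 CPM in KA control, and Slc2a1 at 142, 148 and 131 CPM in KA, against 38.1, 46.4 and 43.9 CPM in KA control. Glycolytic genes included 12 (60%) higher and 3 (15%) lower members of 20 tested (11 and 4 against OGD control). Over all tested genes 35.2% were higher and 37.6% lower. Odc1, which starts polyamine synthesis, was at 1114, 1170 and 1074 CPM in KA, against 434, 453 and 457 CPM in KA control and 433, 449 and 474 CPM in OGD control. Fasn, fatty acid synthase, was at 589, 534 and 557 CPM in KA, against 1161, 1097 and 1159 CPM in KA control and 970, 981 and 967 CPM in OGD control. Of 24 cholesterol genes 12 (50%) were higher and 9 (37.5%) lower, the latter near the share of all tested genes. Against OGD control 9 were higher and 14 lower. Pmvk was higher by 1.57 and Mvk lower by 1.15 on the log2 scale.

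Of 27 tested BCL2-family death genes and caspases 7 (25.9%) were higher and 12 (44.4%) lower, beside 35.2% and 37.6% of all tested genes. The median was -0.36, and against OGD control 8 were higher and 10 lower. Pmaip1, which codes for the BH3-only protein Noxa, was at 149, 131 and 152 CPM in KA, against 31.0, 30.0 and 32.2 CPM in KA control and 29.7, 31.9 and 30.7 CPM in OGD control, with a log2 fold change of 2.21 against KA control and 2.22 against OGD control. Bbc3, the BH3-only protein Puma, was at 16.6, 19.3 and 14.8 CPM in KA, against 45.8, 42.4 and 43.9 CPM in KA control, but 15.8 CPM on average in OGD control (adjusted p = 0.307 for that comparison). Bid, a BH3-only protein, was lower relative to KA control (-1.58) and to OGD control (-0.51). Among p53 targets 12 of 23 were higher and 5 lower (16 and 1 against OGD control), with Cdkn1a, a cell-cycle inhibitor, higher by 2.08 and Xpc, of nucleotide excision repair, at a log2 fold change of -1.398. Neither Cdkn1a (0.19) nor Xpc (0.013) was called against OGD control.

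Of 22 inducible heat-shock genes 15 were higher and 4 lower than in KA control (median 0.53), while 8 were higher and 5 lower than in OGD control (median 0.03). Bag3, a cochaperone of Hsp70, was at 20.4, 19.9 and 16.4 CPM in KA, against 1.29, 1.42 and 1.23 CPM in KA control and 4.51, 4.24 and 3.48 CPM in OGD control. Hspa8, the constitutive Hsp70, was at 5401, 5294 and 5225 CPM in KA, against 2864, 2947 and 2973 CPM in KA control, and was not distinguished from OGD control (adjusted p = 0.0882). Hspa1b rose by 2.35 but was not called against OGD control (0.06), and its near-identical neighbour Hspa1a can share its reads. The CCT chaperonin had 2 of 8 members (25%) higher and 1 (12.5%) lower, both under the shares of all tested genes (2 and 1 against OGD control). Of 36 proteasome subunits 16 (44.4%) were higher and 10 (27.8%) lower, beside 35.2% and 37.6% of all tested genes. None of the subunits passed the 2-fold test, and against OGD control 9 were higher and 4 lower.

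Chromatin and cell-cycle genes were mixed. Dot1l, a histone methyltransferase, was at 680, 853 and 804 CPM in KA, against 176, 176 and 178 CPM in KA control, and Ezh1, another, at 13.5, 16.1 and 13.8 CPM in KA, against 42.6, 41.7 and 39.4 CPM in KA control. Histone lysine methylation enzymes as a list were even, 22 of 51 (43.1%) higher and 22 (43.1%) lower, beside 35.2% and 37.6% of all tested genes. Against OGD control 20 were higher and 11 lower. Of 30 cell-cycle and replication genes 14 were higher and 8 lower (16 and 3 against OGD control). Ccnd2, a D-type cyclin, was at 658, 620 and 620 CPM in KA, against 168, 168 and 169 CPM in KA control and 239, 246 and 248 CPM in OGD control, and Bub1b rose by 3.06. The replication helicase genes Mcm5, Mcm6 and Mcm7 were lower (-1.55, -1.28 and -0.93), but against OGD control Mcm5 (0.25) and Mcm7 (0.095) were not called.

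Cytoskeletal genes were among the abundant transcripts that changed. Nefl, the light neurofilament, was at 1531, 1564 and 1455 CPM in KA, against 379, 402 and 404 CPM in KA control. Map1b, a microtubule-associated protein and the gene with the largest loss in CPM, was at 3203, 2684 and 3392 CPM in KA, against 4512, 4091 and 4267 CPM in KA control and 4606, 4944 and 5105 CPM in OGD control. The other genes chosen for the largest gains were Lars2, Hspa8, Syt4, Stmn1, Eef2, Eprs and Tuba1a, with log2 fold changes of 0.49 to 1.70, and those for the largest losses were Fasn, Chl1, Reep1, 2900097C17Rik, Usp22, Tubb5 and Tubb3, with -1.03 to -0.18. Usp22, Tubb5 and Tubb3 were higher in KA than in OGD control (0.31, 0.10 and 0.41). Tubulin genes are close paralogs, so reads could be split among them. The reads of Lars2, at 5647 to 6595 CPM in KA and 3080 to 3453 CPM in KA control, were not checked for other sources.

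**Figure D5:**
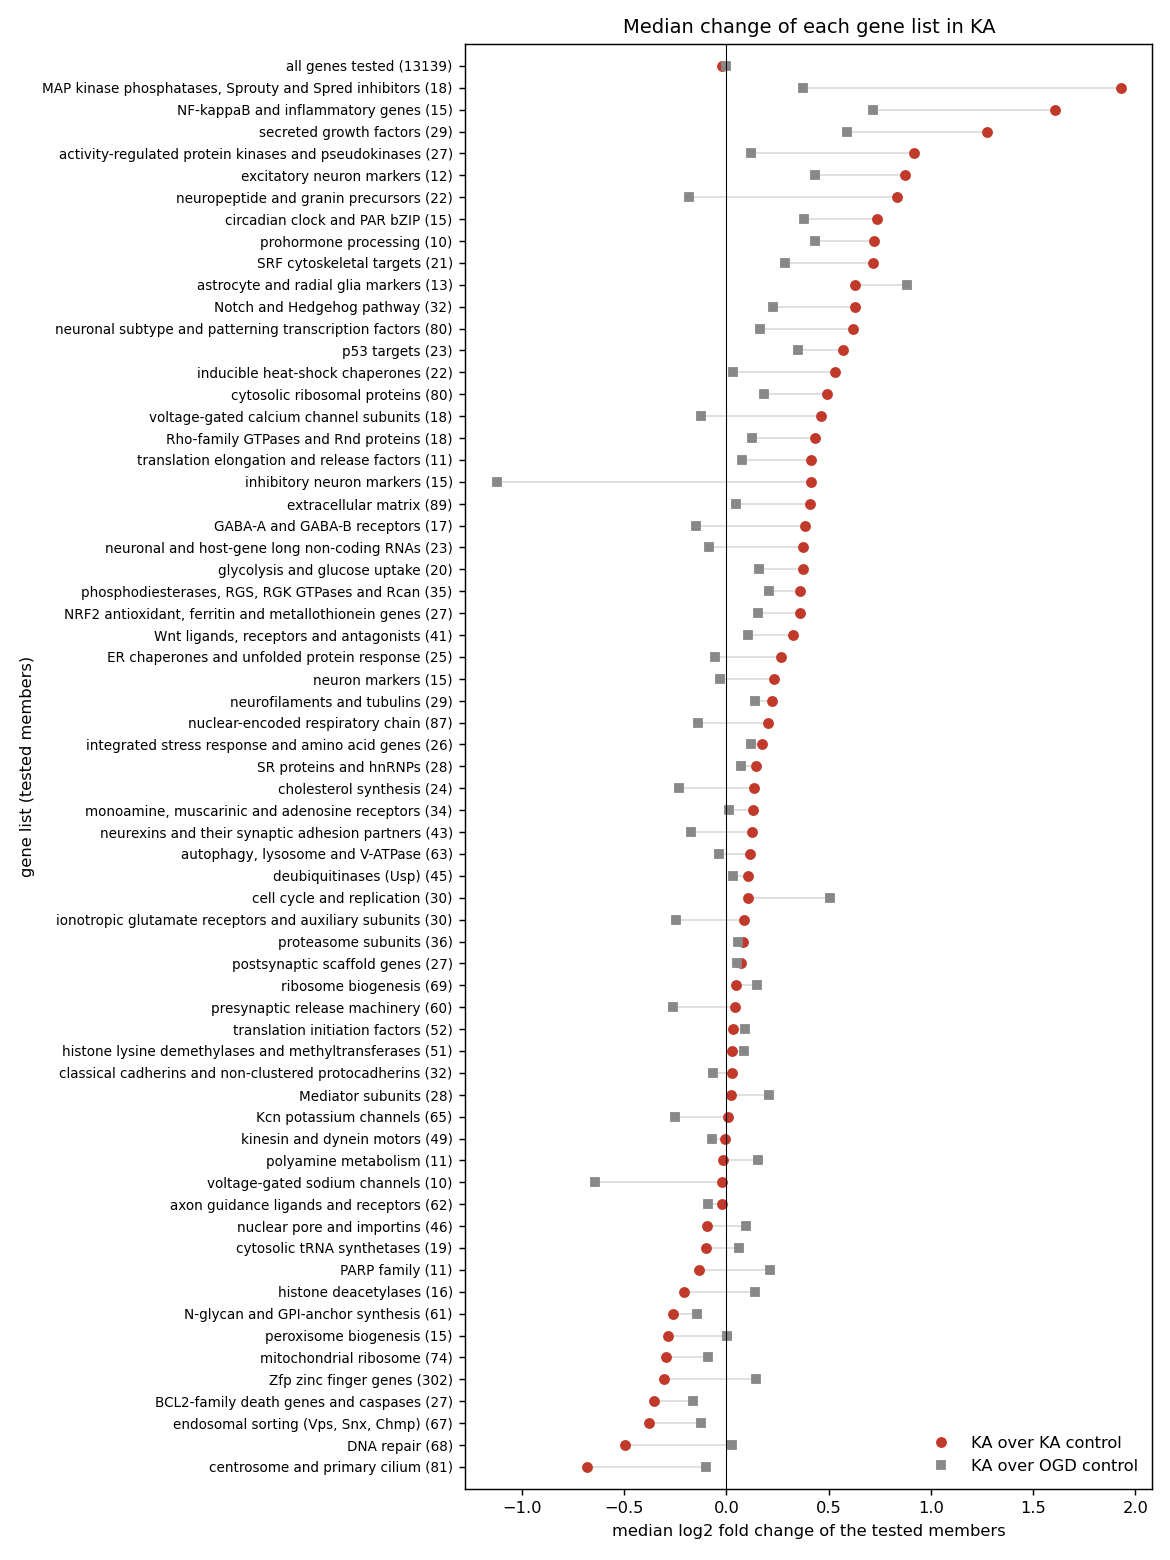
Median log2 fold change of the tested members of each gene list with at least 10 of them, KA over KA control (red circles) and KA over OGD control (grey squares), sorted by the first, with the number tested in brackets and all genes at the top. Signalling inhibitors, inflammatory genes and growth factors are highest and lie above 0 in both. Only 15 of 32 inflammatory genes and 29 of 41 growth factors could be tested. Members that pass the count filter through the high group alone were bound to differ. DNA repair and Zfp genes lie below 0 against KA control and above 0 against OGD control.

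Markers of other cell types also differed between KA and KA control. Of 13 astrocyte and radial glia markers 8 were higher and 1 lower than in KA control (10 and 0 against OGD control), and the list summed to 654 to 706 CPM in KA, against 236 to 245 CPM in KA control and 326 to 355 CPM in OGD control. Vim and Sox9 had log2 fold changes of 2.31 and 3.22, while Gfap, the defining astrocyte marker, was at 1.33 to 1.46 CPM in KA and 1.12 to 1.42 CPM in KA control. Only 7 of 14 microglial markers and 3 of 9 endothelial markers could be tested, and a gene that passes the count filter through the high group alone was bound to differ. Microglial markers were higher in 6 of the 7 (5 against OGD control), at a sum of 9.73 to 13.7 CPM in KA, 5.45 to 6.69 CPM in KA control and 4.66 to 7.22 CPM in OGD control. The 3 endothelial markers were higher (1 against OGD control), at 7.07 to 7.997 CPM in KA, 3.61 to 4.27 CPM in KA control and 6.42 to 6.80 CPM in OGD control. Of 8 tested fibroblast and mural markers 5 were higher and none lower, but against OGD control 1 was higher and 3 were lower, at 21.2 to 21.8 CPM in KA, 7.08 to 7.64 CPM in KA control and 23.7 to 26.1 CPM in OGD control. Col1a1, a fibrillar collagen, was at 11.4 to 12.5 CPM in KA and 1.94 to 2.19 CPM in KA control, and was not called against OGD control (log2 fold change -0.145). Ependymal, choroid plexus and blood markers were higher in 2 and lower in 1 of the 3 tested, and all 3 were lower than in OGD control, at 14.5 to 18.6 CPM in KA, 7.30 to 10.2 CPM in KA control and 34.7 to 40.2 CPM in OGD control. Oligodendrocyte markers were higher in 2 of 6 (3 higher and 1 lower against OGD control), at 44.3 to 50.1 CPM in KA, 36.8 to 39.7 CPM in KA control and 37.6 to 39.7 CPM in OGD control. Their part in the matrix, patterning, inflammatory and Notch results was not tested.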

How the data were processed

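RNA from primary C57Bl6 mouse neurons was sequenced. Per the labels, RNA was purified with RNeasy and prepared with TruSeq RNA v2, a kit that keeps no strand information. The submitters' processing notes name bcl2fastq 1.8.4, TopHat 1.4.1, HTSeq 0.6.1 and mm10, with no settings. The authors deposited unnormalized counts for 22899 gene symbols. The OGD columns are headed OGT and were matched by name; 0 per-sample columns were left out. GENCODE M21 (mm10) held 21553 symbols by name and 958 by an older symbol; 388 had no match.

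With edgeR 4.0.16 in R 4.3.3, genes were filtered by filterByExpr (minimum count 10, minimum total 15), scaled by TMM and fitted as 4 group means over all 12 libraries (8 residual degrees of freedom, common biological coefficient of variation 0.0402). The quasi-likelihood test and, for changes of more than 2-fold, glmTreat were adjusted by Benjamini-Hochberg over 13139 genes. A standard error is the log2 fold change divided by the root of its F statistic. One count equals 0.0429 to 0.0832 CPM. No replicate pair was a repeated library (chi-square of counts per degree of freedom 1.49 to 6.19). The fit was checked on simulated counts. Alternatives were other scalings and filters, DESeq2, a fit of the compared groups alone, a replicate block, genes with 1 transcript and leaving out each library.

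The comparison and the 74 gene lists were chosen with earlier results of these data known, and no list was tested. Named genes are, outside the immediate early list, the 12 largest rises and 12 largest falls (logCPM 3 or more, groups apart), the 8 largest gains and losses in CPM, up to 3 called members per list and direction (logCPM 2 or more), and defining cell markers. Motifs were matched by letters in RefSeq promoters (GRCm38.p6).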

Additional observations from a re-analysis of the deposited data

How the results depend on the processing

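Of 388 genes selected by the naming rule, 377 stayed called in the same direction under all 12 settings tried on single genes, and the other 11 lost the call under at least 1; none changed sign. Counts of calls stayed within 1.5 times, with these exceptions. With DESeq2 1.42.0, 373 genes rather than 675 were lower by more than 2-fold; the cause was not tested. Among the 7479 tested genes with 1 annotated transcript, which are fewer, 2742 were higher and 3042 lower than in KA control, and 2379 were higher and 2318 lower than in OGD control. A fit with the replicate number as a block gave 4504 higher and 4635 lower, 941 and 594 of them by more than 2-fold, and 3645 higher and 3328 lower against OGD control. The numbers did not pair the samples, since same-numbered libraries had correlations of deviations from -0.078 to -0.057. Leaving out 1 library at a time gave 908 to 990 genes higher and 545 to 677 lower by more than 2-fold. Median changes of lists with at least 10 tested members kept their sign under the settings tried, except deubiquitinases without KA replicate 1 and lists whose median lay within 0.05 of 0. Genes under about 1 CPM rest on few counts. How genes with several transcripts were counted was not tested. The table cannot say whether KA or an unusual untreated set moved a gene: where KA control differs from OGD control, treatment and experiment cannot be told apart.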
